A study of Sus scrofa with 2 samples.

Results

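Wide unbroken transcribed regions are stretches of the pig genome of at least 5000 bases in which the pooled reads of 2 libraries never left more than 200 bases between neighbouring read starts. Of 75528 regions with at least 20 pooled reads, 2242 were this wide (2.97%). A block on chromosome 6 (kilobases 245.0 to 260.0) and a stretch on chromosome 2 (kilobases 5165.7 to 5213.3) were left out. The regions were chosen by the starts of the pooled reads, so their width and pooled depth are given as a description only. The study compared 1 library from pig embryonic germ cells (pEGC) with 1 library from fetal fibroblasts (pFF), both from Danish Landrace x Yorkshire embryos of days 17 to 24 of gestation, although the series title speaks of mini pigs. For the germ cells, hindguts of days 17 to 18 or, from day 20 on, the genital ridge area of the mesonephros were cultured without further treatment on mitotically inactivated STO cells, a mouse fibroblast line, with the growth factors LIF and SCF (10 ng/ml each) and bFGF (3 ng/ml). Colonies were separated from somatic and feeder cells on a 24 µm mesh, and the labels do not say how many embryos or cultures a library holds. The labels describe no separate culture for the fibroblasts, and the submitters ascribe self-renewal and pluripotency to both cultures. Mouse feeder reads that aligned to the pig genome cannot be told apart from pig reads.

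Most messenger RNA of animals is spliced, so reads of mature transcripts fall on exons with unread introns between them. Wide stretches without a break are known from long last exons with their 3′ untranslated ends, from long noncoding RNAs with few introns, from unspliced precursor RNA and from genes with closely packed exons. Embryonic germ cells are cultured from primordial germ cells, the precursors of sperm and eggs, and fibroblasts are the matrix-forming cells of connective tissue. The files name no genes, and no genome or annotation of their build was used here, so regions are named by position, the cell types could not be checked against marker genes, and no sequence is shown. All positions are those of the deposited files, counted from 1 under the BED convention, and the build they refer to is not given in the labels.

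Each library had 14324517 aligned reads, an equal number for which the labels give no reason, so whether either library was reduced before deposit is not known. Outside the chromosome 6 block 12682180 pEGC reads and 9942279 pFF reads remained, since the block took 11.5% and 30.6% of the reads. Outside both left-out stretches the pEGC reads had 6277349 distinct positions (a start and a strand, counted once) and the pFF reads 3812240. There were no replicates. Every comparison below therefore sets 1 library against the other, intervals cover counting error only, and without molecular identifiers reads cannot be taken as independent molecules. Within a library, fewer cells of a type and less RNA per cell cannot be told apart.

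The wide regions covered 16649 kb, or 17.5% of all bases in regions. They held 3199704 pEGC reads and 2851846 pFF reads, which were 29.4% and 31.3% of the reads in regions outside the left-out stretches. Widths had a median of 6500 bases (interquartile range 5584 to 8294). In all 1408 regions reached 6000 bases, 297 reached 10000 bases, 54 reached 15000 bases and 10 reached 20000 bases. Per kilobase the median level was 7.08 RPM (reads per 1000000 reads in regions) in pEGC and 3.74 RPM in pFF, against 3.66 and 1.87 RPM in the 10435 regions of 2000 to under 5000 bases. The reads in regions counted for RPM include the left-out stretches. The chromosome 6 block took 11.5% of all pEGC reads and 30.6% of all pFF reads. Without the block in the totals every fold in favour of pEGC is lower. The 3 regions just inside the limit were 5001, 5001 and 5002 bases wide and the 3 just outside fell short of it by 1, 5 and 5 bases. Reads of those inside ranged from 211 to 853 in pEGC and from 26 to 340 in pFF, and those of the regions outside from 374 to 4116 in pEGC and from 145 to 663 in pFF.

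The widest region lay on chromosome 2 from 106579560 to 106607167 and spanned 27608 bases, with 20299 reads in pEGC and 2296 in pFF. Its level was 57.0 RPM per kb in pEGC and 6.08 in pFF, 9.36-fold higher in pEGC (95% interval 8.97 to 9.78). The coverage was far from level, for the last of 4 equal segments held 16951 reads in the pEGC library and 2069 in the pFF library. A region on chromosome 1 from 128918386 to 128944536 (26151 bases) had 5592 and 1849 reads and was 3.20-fold higher in pEGC (3.04 to 3.38). Here the ratio hardly changed along the width, from 3.03-fold in the first segment to 3.30-fold in the last. A further region on chromosome 1 from 33355624 to 33381438 (25815 bases) was carried by the germ cell library, where 4131 reads stood against 52 in pFF, or 84.1-fold (64.0 to 113). So was a chromosome 4 region (15292777 to 15316741, 23965 bases) where 1990 pEGC reads stood against 29, or 72.7-fold (50.4 to 109). A chromosome 17 region (57340181 to 57361700, 21520 bases) had 21245 pEGC reads against 308, or 73.1-fold (65.3 to 82.0). Counting each position once, the log2 ratios of these 3 regions were 5.14, 5.12 and 4.07 in place of 6.39, 6.18 and 6.19. Their pFF reads fell into 17, 18 and 27 separate pieces. Thinned to the 39, 26 and 247 distinct positions of pFF, the pEGC starts formed 25.97, 20.5 and 28.9 pieces, more than in pFF. The largest distance between starts was then 3645, 3516.5 and 1091.5 bases in pEGC (median over the draws), against 6310, 3335 and 1141 in pFF. That distance was smaller in pEGC in the first and last of them and larger on chromosome 4. Which library was less broken here thus depended on the measure. The other 5 of the 10 widest lay on chromosomes 5, 2, 11, 18 and 9 and were 2.65-fold to 8.55-fold higher in pEGC. All 10 had more reads in pEGC, the library with more distinct positions.

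How many regions are this wide depended on the reads that built them. From pEGC reads alone 1427 regions reached 5000 bases, and from pFF reads alone 546. With 9771678 reads drawn from each library outside the left-out stretches, 1115 wide regions were built from pEGC alone and still 546 from pFF alone, whose reads were all used. With 3812240 distinct positions drawn from each library, pEGC alone gave 743 wide regions and pFF alone 546, so the difference between the libraries shrank from 2.61-fold to 1.36-fold. The wide regions of either library had similar widths at this setting, with medians of 6305 and 6128 bases. Of the 743 wide pEGC regions 306 overlapped a wide pFF region by at least 1 base (41.2%), and of the 546 wide pFF regions 308 overlapped a wide pEGC region (56.4%). Narrower regions of the other library were not counted, so a region without such an overlap may still hold its reads. No share over regions of other widths is set beside these overlaps, which are a description only.

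**Figure D1:**
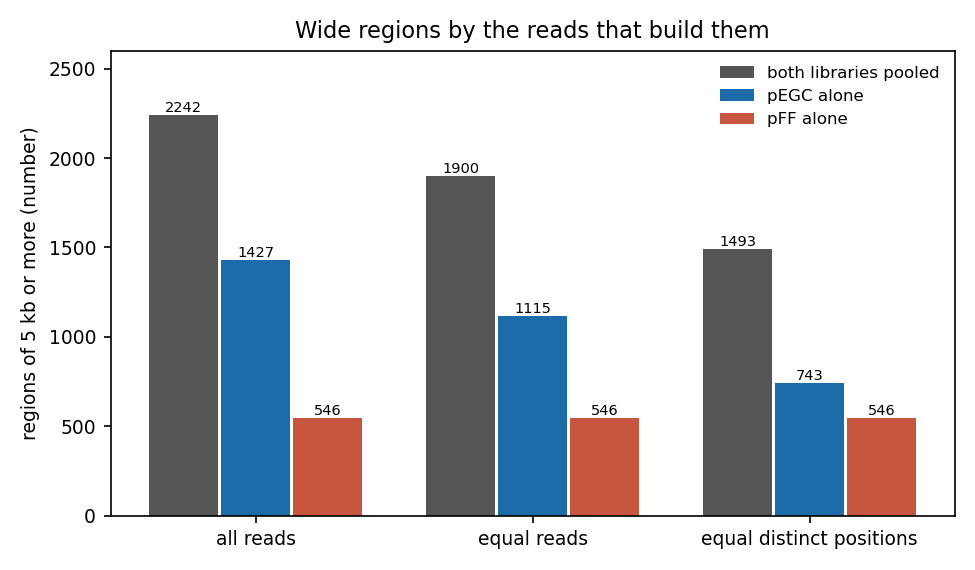
Number of regions of 5 kb or more (vertical axis) built from both libraries pooled (grey), pEGC alone (blue) or pFF alone (red), from all reads, from equal numbers of reads and from equal numbers of distinct positions per library outside the left-out stretches. With all reads 1427 wide regions came from pEGC and 546 from pFF; with equal distinct positions the numbers were 743 and 546.

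Few of the wide regions were unbroken in both libraries. Counting a region as unbroken in a library when its own starts left no more than 200 bases anywhere, the region's ends included, 1003 of 2242 were unbroken in pEGC (44.7%) and 259 in pFF (11.6%). In all 107 regions were unbroken in each library alone, and 1087 were unbroken in neither, only in the pooled starts. The median region had 2 pieces in pEGC and 5 in pFF, and its longest piece spanned 93.2% of the width in pEGC and 38.0% in pFF. In the 1085 regions with at least 200 distinct positions in both libraries, the library with more positions was then thinned to the number in the other. At these equal numbers 195 regions were unbroken in pEGC (18.0%) and 145 in pFF (13.4%), 88 of them in both. Fewer pieces were found in pEGC in 665 of the 1085 regions, fewer in pFF in 381 and as many in 39. For the thinned library the mean number over the draws was set against the count in the other. Differences of a fraction of a piece were therefore counted too. By number of pieces the pEGC library was the less broken one in most of these regions. The counts of unbroken regions lay closer than the 506 and 183 found at full depth. The regions were chosen by the pooled starts, and 884 of the 1085 had more distinct positions in pEGC. Thinning does not undo that choice, and its part in the number of pieces was not tested.

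The libraries were then compared in level. A region was called higher in a library where the RPM ratio reached 4-fold, 50 or more reads fell in the higher library and the whole exact interval exceeded 2-fold. Such calls describe the size of differences between the 2 libraries, without a test of the conditions. By this rule 532 of 2242 wide regions were higher in pEGC (23.7%), against 20.5% of the 32201 regions of any width with enough reads. In pFF 95 were higher (4.24%), against 7.15% of all regions. The shares lay close to those of regions of 2000 to under 5000 bases, which were 23.6% in pEGC and 4.16% in pFF. Of the 627 wide regions that differed, 84.8% were higher in pEGC, against 74.2% of the calls over all regions and 85.0% in regions of 2000 to under 5000 bases. With a trimmed mean of M-values as the scaling, which divides each fold in favour of pEGC by 1.71, 335 were higher in pEGC and 147 in pFF, so that 69.5% of the calls were for pEGC. At that scaling 14.9% of the wide and 13.0% of all regions were higher in pEGC, and 6.56% and 10.7% were higher in pFF. With the median of ratios as the scaling 68.8% of the calls were for pEGC. Without the chromosome 6 block in the totals 433 wide regions were higher in pEGC and 115 in pFF. In wide regions the log2 ratio (pEGC over pFF) had a median of 0.97 by reads and 0.31 by distinct positions, against 0.75 and 0.07 in all regions and the same 0.97 and 0.31 in regions of 2000 to under 5000 bases. Nearly as many wide regions as regions of any width were within 2-fold (43.2% and 45.4%).

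The share of calls changed with width in the widest classes. Of the 834 regions under 6000 bases 22.9% were higher in pEGC and 3.72% in pFF. Of the 243 regions from 10000 to under 15000 bases 31.3% were higher in pEGC and 4.12% in pFF. Of the 54 regions of 15000 bases or more 18 were higher in pEGC (33.3%) and 5 in pFF (9.26%). The median log2 ratio rose over these classes from 0.92 to 1.18 and 1.49. Wider regions also had more reads, with medians of 409.5 in pEGC and 237.5 in pFF in the narrowest class against 3457 and 1100 in the widest. Width itself was set by the pooled starts, to which pEGC gave more distinct positions than pFF. Width and ratio were therefore not measured independently of each other. The parts of this choice of regions and of depth in the rise were not tested.

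**Figure D2:**
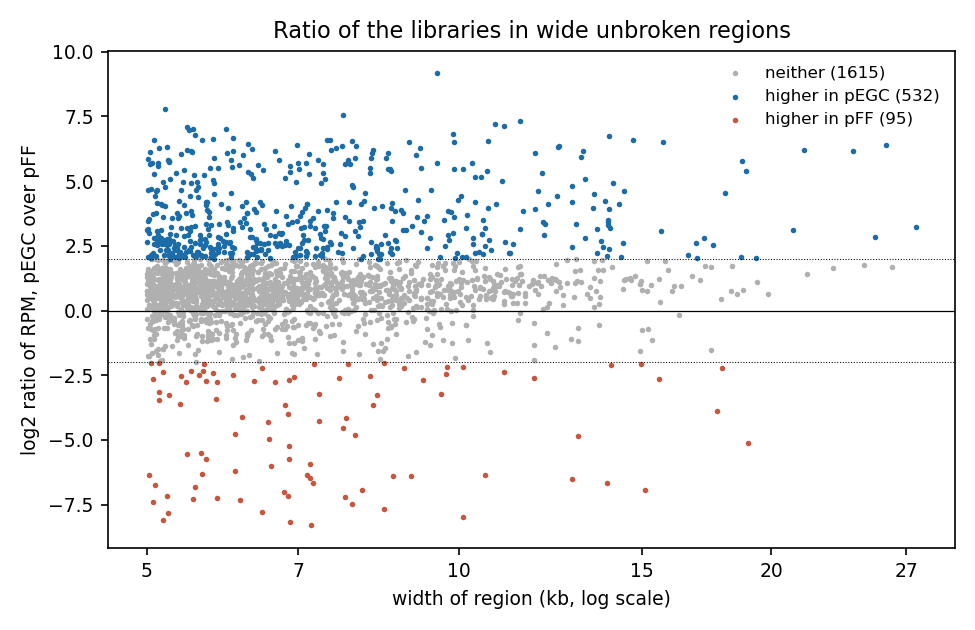
Each point is 1 of the 2242 wide regions, with its width in kb on a log scale (horizontal) and the log2 ratio of RPM, pEGC over pFF (vertical). Blue points are the 532 regions higher in pEGC, red points the 95 higher in pFF, grey points neither; dotted lines mark 4-fold. Regions higher in pEGC are found up to the greatest widths.

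The wide regions with most pEGC reads included a pair on chromosome 14. The region from 11463479 to 11469939 was 16.8-fold higher in pEGC (16.3 to 17.3), with 67949 pEGC reads against 4281, and that from 11456363 to 11463248 had 48538 and 3095 reads (16.6-fold, 16.02 to 17.23). Only 230 bases separated them. On chromosome 16 from 15499459 to 15512912, 36889 pEGC reads stood against 2516 in pFF (15.5-fold, 14.9 to 16.2). When each position was counted once these 3 ratios fell to log2 values of 1.60, 1.09 and 1.74 and under the 4-fold rule, as did that of the widest region (1.60). A region holds a limited number of positions, so this count can also bring the libraries closer together in deep regions. The part of this limit in the drop was not tested.

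Among the regions with most pFF reads, that on chromosome 1 from 138127337 to 138145259 held 186424 pFF reads against 38233 pEGC reads, 4.60-fold more in pFF (4.55 to 4.66). The next region lay 7745 bases away on one side and 786787 bases on the other. Its ratio declined along the width, from 5.45-fold in the first segment to 4.64, 3.85 and 3.07-fold in the following ones. The region on chromosome 9 from 69437811 to 69456812 had 117602 pFF and 3176 pEGC reads (35.0-fold, 33.8 to 36.2). In pFF its starts formed 1 piece, and in pEGC 27. With pFF thinned to the 1193 positions of pEGC it had 11.8 pieces on average over the draws. Its ratio was similar in all segments, between 30.9-fold and 42.4-fold. By distinct positions its log2 ratio was -2.79, against -5.13 by reads. On chromosome 1 from 112375672 to 112391260, 55795 pFF reads stood against 8397 pEGC reads (6.27-fold, 6.13 to 6.42). From the first to the last segment its fold was 8.99, 2.05, 3.59 and 6.74. The region on chromosome 3 from 3868486 to 3877535 was among the leaders of both libraries, with 39128 pEGC and 51431 pFF reads, 1.24-fold higher in pFF (1.22 to 1.26). Of the distinct positions 91.4% in pEGC and 97.6% in pFF lay left of its midpoint, and in the sparsely covered last segment the 124 pEGC and 13 pFF reads gave 10.1-fold more in pEGC (5.70 to 19.5). By distinct positions the log2 ratios on chromosome 1 moved to -0.53 at 138127337 and -1.28 at 112375672, both under the 4-fold rule. The first of these had 9128 distinct positions for its pFF reads and 9728 for its pEGC reads. A limited number of positions can also bring the libraries closer together in deep regions, and its part here was not tested.

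Regions with the largest ratios were carried by 1 library almost alone. In pFF the leading one lay on chromosome 14 from 105779045 to 105786249, with 49332 pFF and 148 pEGC reads (315-fold, 268 to 372). Its pEGC reads formed 10 pieces, with 92.9% of their 70 distinct positions in the densest 5 of 20 bins. A chromosome 18 region (21682594 to 21689466) followed at 292-fold (interval 125 to 900), where 1545 pFF reads stood against 5. For a chromosome 10 region (56114876 to 56120058) it was 4309 reads against 15, or 271-fold (164 to 485). A chromosome 3 region (63606952 to 63617043) held 8628 reads against 32, or 255-fold (180 to 372). The fifth was a chromosome 12 region (24668887 to 24674128), whose 13474 pFF reads and 56 pEGC reads gave 227-fold (175 to 301). Counting each position once changed the sizes and the order of these 5. The log2 ratio was then -4.93 for the chromosome 14 region, the smallest of the 5, and -7.77, -7.13, -6.10 and -5.08 for those on chromosomes 18, 10, 3 and 12. By reads it had been -8.30, -8.19, -8.08, -7.99 and -7.83 in the same order. Thinned to the pEGC positions, the pFF starts formed 11.2, 3.84, 5.35, 11.1 and 9.56 pieces, against 10, 4, 4, 7 and 9 in pEGC. In pEGC the largest ratio was in a chromosome 7 region (52576559 to 52586090), where 543 pEGC reads stood against 1 pFF read and the 575-fold ratio had an interval of 103 to 22755. A chromosome 4 region (22877033 to 22882240), 211 reads against 1, reached 223-fold (39.7 to 8867). A chromosome 5 region (94359968 to 94367700), 357 reads against 2, reached 189-fold (52.0 to 1567). Narrower intervals belonged to a pair of further chromosome 7 regions. That starting at 30920042 and ending at 30931482 had 1839 reads against 12, or 162-fold (92.7 to 315). That starting at 20216322 and ending at 20227143 had 1104 against 8, or 146-fold (73.9 to 339). By distinct positions the log2 ratios of these 5 were 8.03, 6.76, 6.48, 5.93 and 5.93, against 9.17, 7.80, 7.56, 7.34 and 7.19 by reads. Thinned to the pFF positions in the last 2 of these, the pEGC starts formed 8.54 pieces against 8 in pFF and 6.83 against 4. Among all wide regions, 50 had 10 reads or fewer in pFF and 10 had so few in pEGC.

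Evenness along the width was measured as the coefficient of variation (SD over mean) of 200 distinct positions in 20 equal bins. A level coverage gives 0.308, and higher values mean coverage that is concentrated in part of the width. Among the 1085 regions with enough positions in both libraries, the median was 0.719 in pEGC (interquartile range 0.556 to 0.933) and 0.827 in pFF (0.613 to 1.11). Near-level coverage, under 0.4, was found in 38 regions in pEGC and 22 in pFF, and in 14 of them in both. Values of 1 or more were found in 208 regions in pEGC (19.2%) and 368 in pFF (33.9%), 197 of them in both. Unbroken coverage was seldom level coverage, for the densest 5 of 20 bins, or 25% of the width, held a median of 48.2% of the pEGC positions and 52.4% of the pFF positions. Regions that were uneven in 1 library were mostly uneven in the other (Spearman rho 0.850 across the 1085 regions, as a description; the libraries share each region's limits).

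Coverage was more level in pEGC than in pFF in 856 of the 1085 regions (78.9%), with a median difference of 0.08 in the coefficient of variation. In 1279 regions of 2000 to under 5000 bases the medians were 0.719 and 0.746 and the share was 65.2%. The share followed which library had more positions before drawing. It was 83.7% in the 884 wide regions with more distinct positions in pEGC, and 57.5% in the 200 with more in pFF. Among 141 regions whose position numbers differed by less than 0.2 on the log2 scale it was 69.5%, with medians of 0.774 and 0.810. Among the 83 of the 1085 regions called higher in pEGC, 79 were more level in pEGC, and among the 26 called higher in pFF, 16 were. The limits of a region come from the starts of both libraries, and their part in the evenness was not tested.

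**Figure D3:**
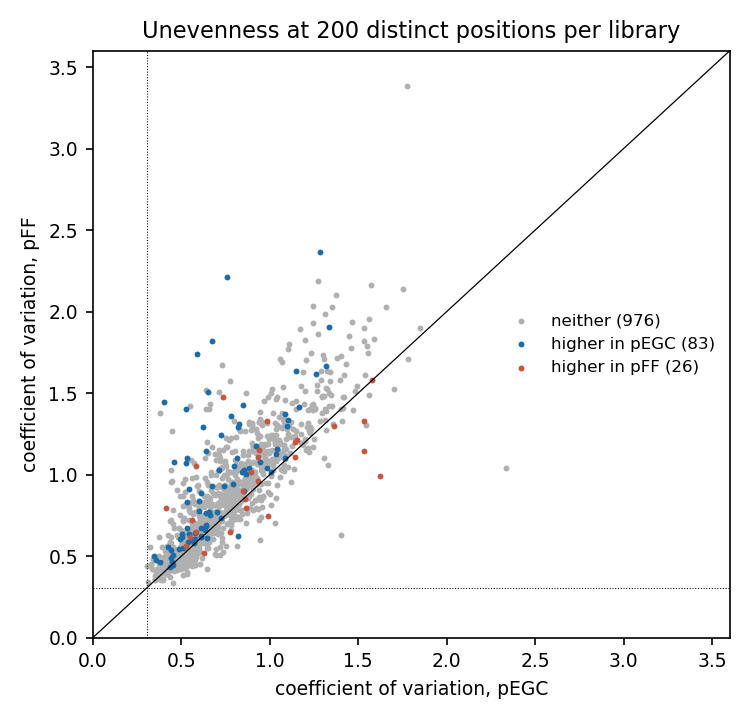
Coefficient of variation of 200 distinct positions over 20 bins in pEGC (horizontal) and pFF (vertical) for 1085 wide regions; the diagonal marks equal values and dotted lines the 0.308 of level coverage. Points above the diagonal, 856 of them, are regions with more level coverage in pEGC; colours give the 4-fold rule.

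The most level region lay on chromosome 18 from 15648753 to 15658463 (9711 bases), with a coefficient of variation of 0.31 in pEGC and 0.34 in pFF. It had 908 pEGC and 804 pFF reads, 1.20-fold higher in pEGC (1.09 to 1.32), a direction that turned with other scalings (log2 -0.51 with the trimmed mean of M-values). On chromosome 13 from 104346109 to 104351308 the values were 0.35 and 0.36, and neighbouring starts were at most 32 bases apart in pEGC and 73 in pFF. That region had 3261 and 1141 reads (3.03-fold higher in pEGC, 2.83 to 3.24). The regions on chromosome 16 from 29368010 to 29375061 (1466 and 3537 reads, 2.28-fold higher in pFF, 2.14 to 2.42) and on the X chromosome from 72858603 to 72863957 (522 and 1107 reads, 2.00-fold, 1.80 to 2.23) were as level with the other sign of ratio. The fifth, a chromosome 1 region (92170678 to 92176229), had 1280 pEGC and 622 pFF reads and a 2.18-fold ratio in favour of pEGC (1.98 to 2.40). None of these 5 passed the 4-fold rule, and the nearest other region to the X region was 148947 bases away. The correlations between the libraries over the 20 bins were low in these 5, between 0.05 and 0.31. These regions were chosen for near-level coverage, which leaves little to correlate. The part of this choice in the low values was not tested.

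At the other end stood a region on chromosome 13 from 33006510 to 33013808, with coefficients of variation of 1.78 in pEGC and 3.38 in pFF. Its last bin, 5% of the width, held 42.7% of the pEGC positions and 78.8% of the pFF positions. Another region on chromosome 13 from 32990761 to 32999448 reached 1.66 and 2.03. The other 3, on chromosome 12 from 34047127 to 34055887 and on chromosome 5 from 17235170 to 17246414 and from 65438416 to 65448264, had 1.58 to 1.85 in pEGC and 1.90 to 2.16 in pFF. In these 5 the peaks lay at the same places, with correlations of 0.97 to 0.98 over the bins. At full depth the starts formed 1 to 5 pieces in pEGC and 7 to 13 in pFF. At equal numbers of distinct positions they formed 1 to 9.49 pieces in pEGC and 7 to 13 in pFF.

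Evenness differed most between the libraries in 5 regions, of which that on chromosome 13 at 33006510 was one. On chromosome 14 at 11463479 the value was 0.76 in pEGC and 2.21 in pFF. On chromosome 4 from 98025303 to 98037104 it was the pEGC library that was uneven (2.33 against 1.04). There 1257 pEGC reads stood against 5028 pFF reads, 3.78-fold higher in pFF (3.55 to 4.02), and the fold rose from 3.05 in the first segment to 11.9, 17.5 and 23.5 in the following ones. With the trimmed mean of M-values it passed the 4-fold rule (log2 -2.69), and so did the chromosome 13 region at 33006510 (log2 -2.47). On chromosome 5 from 38817098 to 38842295 (25198 bases) 91.5% of the pFF positions lay right of the midpoint, and the values were 0.67 in pEGC and 1.82 in pFF. That region was 43.8-fold and 54.2-fold higher in pEGC in its first 2 segments and 4.67-fold and 4.32-fold in the last 2. On chromosome 14 from 80001592 to 80008039 a single bin held 41.5% of the pFF positions (0.59 against 1.74). In its first segment pFF had 1.37-fold more (1.22 to 1.54), while in the other 3 pEGC had 15.2-fold to 17.8-fold more. As a whole it was 5.16-fold higher in pEGC (4.82 to 5.53), and it fell under the 4-fold rule with the trimmed mean of M-values (log2 1.59).

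**Figure D4:**
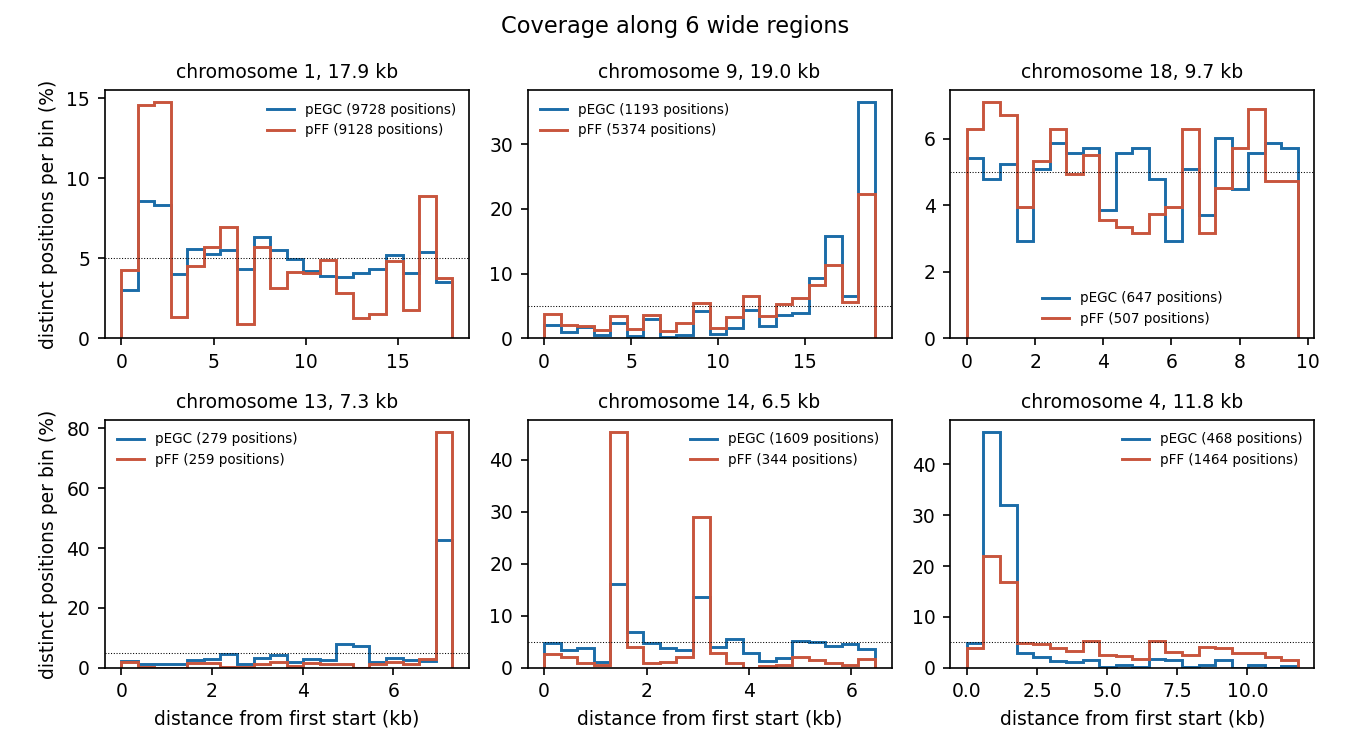
Share of a library's distinct positions in each of 20 bins (vertical, %) against the distance from the first start in kb for 6 wide regions, pEGC in blue and pFF in red; the dotted line marks the 5% of level coverage. The chromosome 18 region is nearly level in both, the chromosome 9 region rises to 36.5% in pEGC and 22.2% in pFF in its last bin, and the regions on chromosomes 13 and 14 have 1 bin with 78.8% and 45.3% of the pFF positions, that on chromosome 4 one with 46.4% of the pEGC positions.

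The course of coverage along the width was largely shared. With 200 positions drawn from each library, the median correlation of the 2 profiles over 20 bins was 0.82, with an interquartile range of 0.68 to 0.90. The side of the midpoint that held more positions was the same in both libraries in 973 of 1085 regions (89.7%). It lay on the left, towards lower coordinates, in 542 regions in pEGC and 534 in pFF, so neither direction of the chromosome prevailed. The heavier side held a median of 61.3% of the positions in pEGC and 62.5% in pFF. In 183 regions (16.9%) it held 75% or more in pEGC, and in 264 (24.3%) in pFF. Of these 163 were so lopsided in both libraries, and all 163 leaned to the same side. Turned so that the side heavier in pFF came first, the median pEGC region had 5.94% of its positions in the fifth bin and 2.20% in the last. Turned by pEGC, the pFF regions went from 5.98% to 1.69%. The mean shares in the last bin were 3.15% in pEGC and 3.14% in pFF. As the heavier side was mostly shared, more coverage before the middle follows largely from the turning. The direction of transcription is not known here, as the protocol names no strand-preserving step.

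**Figure D5:**
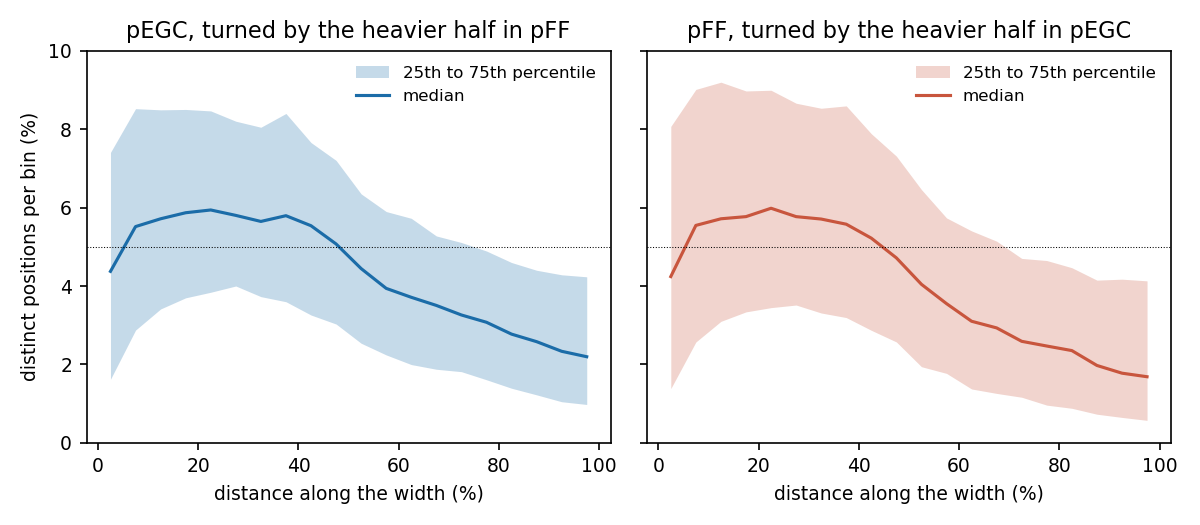
Median share of distinct positions per bin (line) with the 25th to 75th percentile (band) along the width of 1085 wide regions, each turned so that the side with more positions in the other library comes first; the dotted line is the 5% of level coverage. In both libraries the median share is highest before the middle and falls to 2.20% (pEGC) and 1.69% (pFF) in the last bin, where the means are 3.15% and 3.14%. The heavier side was mostly shared, so more coverage before the middle follows largely from the turning.

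The ratio of the libraries was also followed along the width. With the 4-fold rule applied to each of 4 equal segments of the width, 808 of the 2182 wide regions with 50 reads in a segment had at least 1 segment higher in pEGC (37.0%) and 131 at least 1 higher in pFF (6.0%). In regions of 2000 to under 5000 bases, whose segments are shorter and hold fewer reads, the shares were 26.6% and 5.91% of 6248. Of the 532 wide regions called for pEGC, 307 passed in all 4 segments, and of the 95 called for pFF, 56 did. In regions of 2000 to under 5000 bases 2223 and 392 were called as a whole, and 259 and 98 passed in all 4 segments. Their segments hold fewer reads, so these counts cannot be set directly beside those of wide regions. A further 290 wide regions that did not pass as a whole had a segment higher in pEGC, and 37 had one higher in pFF. Segments of opposite direction were found in 3 wide regions and in 0 regions of 2000 to under 5000 bases. The 3 are named here after their values were seen. On chromosome 18 from 12662185 to 12667260 the first segment had 596 pEGC and 2573 pFF reads, 4.08-fold higher in pFF, and the second 837 and 215 reads, 4.12-fold higher in pEGC. On chromosome 10 from 53219718 to 53224818 the third segment was 4.02-fold higher in pEGC with 171 and 45 reads, and the last 5.11-fold higher in pFF with 190 and 1029 reads. On chromosome 13 at 33006510 the third segment had 89 and 17 reads (5.54-fold higher in pEGC) and the last 267 and 1489 reads (5.27-fold higher in pFF). The trimmed mean of M-values lowers every fold in favour of pEGC, and with it no segment of these 3 regions would reach 4-fold in pEGC. The calls in opposite directions thus depend on the scaling.

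In each of these 3 the pFF excess sat in a short stretch. The densest 200 bases held 73.9% of all pFF reads of the chromosome 18 region, 88.6% on chromosome 10 and 81.8% on chromosome 13. On chromosomes 18 and 10 nearly all reads of that stretch lay on 1 strand, with 97.4% on strand F and 99.7% on strand R, whereas on chromosome 13 the strands were balanced (51.1% F). A similar stretch lay in one of the widest regions, on chromosome 9 from 65880793 to 65901777. It had 9049 pEGC and 1121 pFF reads and was 8.55-fold higher in pEGC (8.03 to 9.10), but 85.5% of its pFF reads lay in 200 bases with 38 distinct positions, and 20.4% at a single position. With the densest 200 bases of each library left out, 8345 and 154 reads remained and the fold was 57.4 (48.9 to 67.7). Its first 3 segments were 54.4-fold to 67.4-fold higher in pEGC, and the last 1.82-fold.

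Such concentration was rare among the wide regions. The densest 200 bases held a median of 13.9% of the pEGC reads in 1987 regions with at least 200 reads, and 16.4% of the pFF reads in 1455 regions. They held 50% or more in 31 regions in pEGC (1.56%) and 55 in pFF (3.78%). With these stretches left out everywhere, 576 regions were higher in pEGC and 94 in pFF, and 531 of the 532 and 92 of the 95 kept their call. On chromosome 10 at 53219718 the direction of the whole region turned, from 1.89-fold higher in pFF to 3.19-fold higher in pEGC. It also turned on chromosome 15 from 131881725 to 131886925, from 2.61-fold higher in pFF to 2.22-fold higher in pEGC. These regions were chosen after their values were seen.

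Strand played no part in choosing the regions. The median share of reads on strand F was 49.92% in pEGC and 50.04% in pFF. It fell outside 40 to 60% in 63 of 1987 regions in pEGC (3.17%) and in 110 of 1455 in pFF (7.56%), against 9.75% and 13.6% of regions of 2000 to under 5000 bases. On chromosome 1 from 236932862 to 236939162 both libraries had the same skew, with 82.5% of 4760 reads on strand F in pEGC and 80.8% of 1509 in pFF. Its densest 200 bases lay at the very start of the region and held 69.6% and 52.6% of the reads. On chromosome 3 from 49012609 to 49017698 the shares on strand F were 78.8% of 4382 reads and 90.1% of 4287. At equal numbers of reads per region, distinct positions made up a median of 73.1% of the reads in pEGC and 61.7% in pFF over 1756 regions with at least 100 reads in both. The share was larger in pEGC in 1652 of them (94.1%), against 91.4% of regions of 2000 to under 5000 bases, where the medians were 68.5% and 58.9%.

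Wide regions often had a close neighbour. The nearer neighbouring region lay a median of 266 bases away, where 167 bases is the shortest distance the rule allows, and 1271 wide regions (56.7%) had a neighbour within 300 bases. Among all other regions this share was 33.2%, and among those of 2000 to under 5000 bases 50.8%. No region lay within 5 kb of 206 wide regions (9.19%). Wide regions within 20 kb of each other were grouped, which gave 1818 groups, 324 of them with 2 or more wide regions and 5 with 5 or more. No group held both a region higher in pEGC and one higher in pFF. Only the 324 groups with 2 or more wide regions could hold both, and only 95 wide regions were higher in pFF. How many mixed groups to expect from these numbers was not tested, so no conclusion on shared direction is drawn.

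The group with most wide regions lay on chromosome 15 from 110934963 to 111013129, where 6 regions covered 80.4% of 78.2 kb. Their summed level was 12142 RPM in pFF against 2429 in pEGC. Each of the 6 was higher in pFF, by 5.16, 4.64, 6.14, 4.15, 4.53 and 5.57-fold from the first to the last. When each position was counted once 0 of the 6 passed the rule. In deep regions that count can also bring the libraries closer together, and its part was not tested. On chromosome 1 from 53797451 to 53861475, 5 wide regions covered 61.4% of 64.0 kb and were all higher in pEGC, from 5.02-fold to 14.2-fold. With the trimmed mean of M-values, and also with each position counted once, 3 of the 5 passed. Their summed level was 342 RPM in pEGC against 47.8 in pFF. Groups of 5 on chromosome 14 from 31713681 to 31779780 and on chromosome 16 from 41924711 to 41983387 held no region that passed the rule. The remaining group of 5, on chromosome 2 from 11148596 to 11206691, held 1 region higher in pEGC, which did not pass with the trimmed mean of M-values.

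Wide regions were found on all 19 chromosomes in the files. They made up between 1.89% of the regions of chromosome 11 (35 of 1849) and 4.12% of those of chromosome 4 (185 of 4490). The X chromosome had 80 wide regions, of which 31 were higher in pEGC (38.8%) and 4 in pFF (5.00%), while over all regions of X with enough reads the shares were 21.3% and 5.45%. On chromosome 8, 26 of 81 wide regions were higher in pEGC (32.1%) and 6 in pFF (7.41%), against 29.8% and 7.24% of all its regions with enough reads. These chromosomes were singled out after their values were seen. Shares per chromosome were counted with RPM only, and with the trimmed mean of M-values fewer wide regions in total were higher in pEGC. The median log2 ratio of the wide regions lay between 0.75 on chromosome 5 and 1.21 on the X chromosome.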

How the data were processed

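Per the labels' protocols, RNA selected for poly(A) in 2 rounds was fragmented and copied from random hexamers. The deposited files list 1 aligned read of 34 bases per line by chromosome, start, end and strand, with repeated lines kept. The aligner is not given in the sources used here, nor are build and filters. Reads were counted here from these positions with Python 3.11.15, numpy 2.4.6, scipy 1.17.1 and pandas 2.3.3. RPM refers to 12910575 pEGC and 13672805 pFF reads in regions, left-out stretches included. Ratios carry exact Clopper-Pearson 95% intervals, and a count of 0 was set to a floor of 3 reads (0.232 RPM in pEGC, 0.219 in pFF). Draws of positions were repeated 100 times with a fixed seed, and a thinned region counted as unbroken if it was so in at least 50% of the draws. With 1 library per group no test was run. The calculations were tested on simulated data. Alternatives changed the joining distance, read minimum, width, scaling (trimmed mean of M-values, median of ratios, totals without the chromosome 6 block), counting of repeats, fold, bins and positions drawn.

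The regions named are the 10 widest, the 5 with most reads in each library, the 5 with the largest ratio in each direction (200 reads or more in the higher library), the 5 most and 5 least even, the 5 whose evenness differs most, and the 3 on each side of the width limit. Members and measures were chosen with earlier results of these data known. Segments, densest stretches and groups were chosen after the data were seen.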

Additional observations from a re-analysis of the deposited data

How the results depend on the processing

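The number of wide regions rested on the definition. It was 463 with starts joined over 100 bases, 5095 over 300 bases, 3792 at a width of 4000 bases and 1408 at 6000 bases, and 2242 with a minimum of either 5 or 50 pooled reads. It was 1427 from pEGC alone and 546 from pFF alone, and 1900 with equal reads of both. In a setting added after seeing the data, equal distinct positions gave 1493 from both, 743 from pEGC alone and 546 from pFF alone. Regions higher in pEGC numbered 335 with the trimmed mean of M-values, 326 with the median of ratios, 433 without the chromosome 6 block, 317 with each position counted once (317 also without the block) and 1098 with a 2-fold rule. Those higher in pFF numbered 147, 148, 115, 91 (91) and 175. Unbroken in pEGC alone were 32 at 100 bases, 1733 at 300 bases and, over all 2242 wide regions rather than the 1085 of the report, 198 at equal positions; in pFF 8, 554 and 148. The median coefficient of variation in pEGC and pFF was 0.577 and 0.682 with 10 bins, 0.868 and 0.981 with 40 bins, 0.757 and 0.880 with 100 positions, 0.717 and 0.822 with 400 positions, and 0.892 and 1.004 with reads, and it was lower in pEGC in 70.5% to 79.3% of regions under these settings. Of 210 ratios of named regions under other scalings and ways of counting, 172 kept their direction and call, 24 changed their call, 14 without a call changed sign and 0 with a call reversed. Regions of few reads limit the rest: 1157 wide regions had under 200 distinct positions in 1 library or both and entered evenness only at 100 positions, or not at all in the 653 with under 100. No paired analysis was possible because each group has 1 library.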
